A study of Arabidopsis thaliana with 8 samples.

Results

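The 39 genes described here encode proteins of the cytosolic ribosome of *Arabidopsis*, 16 of the small (40S) subunit and 23 of the large (60S) subunit, out of 37361 genes counted by RNA sequencing. They were taken as a fixed list of identifiers and stand for 25 proteins. 14 of these proteins are represented by a single gene, and the other 11 by 2 or 3 paralogs (25 genes). The libraries were labelled as *fry1-6*, a T-DNA line of *FRY1*, as the double mutant *fry1-6 rdr6-11* (the *rdr6-11* double), as that with *rdr1-1* in its place (*fry1-6 rdr1-1*, the *rdr1-1* double), or as WT (Columbia-0), with 2 libraries of each, made from 12-day-old seedlings. All mutant groups carry *fry1-6*. FRY1 degrades the nucleotide PAP, which otherwise inhibits XRN exoribonucleases, and RDR6 and RDR1 copy single-stranded RNA into double-stranded RNA from which siRNAs are cut. The labels give 23 °C and 16 h of light, whereas the methods of the study give a slightly lower temperature and short days. The genotype entry of both *rdr1-1* double mutant libraries reads as the *rdr6* double mutant, so that their titles were followed. Nothing states that the 2 libraries of a genotype came from separate cultures, and the tests therefore measure the spread between libraries.

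The cytosolic ribosome translates the mRNAs of nuclear genes. Its small subunit decodes the mRNA and its large subunit forms the peptide bond. In *Arabidopsis* nearly every ribosomal protein is encoded by a small family of nuclear genes, whose members can differ in level and in the phenotype of their mutants. Ribosomal protein mRNAs are among the most abundant in growing tissue, and their promoters often carry short shared elements, the telo box and site II.

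The libraries held between 15069329 and 26285519 counts on genes. Counts were scaled by TMM and are given as CPM, counts scaled to a common library size. The mutated genes themselves were not lower throughout: *FRY1* had 101 and 93.6 CPM in *fry1-6*, 80.6 and 151 CPM in the *rdr6-11* double and 55.0 and 118 CPM in the *rdr1-1* double, against 49.1 and 27.5 CPM in WT. *RDR6* had 21.5 and 17.3 CPM in *fry1-6*, 12.1 and 20.7 CPM in the *rdr6-11* double and 11.0 and 19.5 CPM in the *rdr1-1* double, against 39.5 and 20.2 CPM in WT. *RDR1* had 17.8 and 12.5 CPM in *fry1-6*, 38.9 and 20.9 CPM in the *rdr6-11* double and 28.8 and 19.5 CPM in the *rdr1-1* double, against 19.7 and 9.38 CPM in WT. *FRY1* was thus highest in the mutants that should lack it, *RDR6* overlapped between the *rdr6-11* double and WT, and *RDR1* was not lower in the *rdr1-1* double. None of these genes was called against WT in any mutant (edgeR adjusted p from 0.0592 to 0.961). RNA of a mutated gene can still be counted, so genotype names stand here for libraries labelled as such. Genes of the chloroplast genome took 2.29% to 2.80% of the counts in the libraries of both double mutants, against 0.0342% to 0.173% in those of *fry1-6* and WT. Wherever the double mutants stand apart from the other libraries, this library difference and the genotype cannot be told apart. Transcripts of green shoot were abundant in every library, with 6 markers summing to 38033 to 49908 CPM in *fry1-6*, 27798 to 33366 CPM in the *rdr6-11* double and 55701 to 64506 CPM in the *rdr1-1* double, against 34137 to 51755 CPM in WT. The 6 markers of dividing cells summed to 53.5 to 63.5 CPM in *fry1-6*, 47.0 to 49.0 CPM in the *rdr6-11* double and 76.6 to 93.7 CPM in the *rdr1-1* double, against 51.4 to 69.7 CPM in WT. Root markers were low throughout, with 5 genes summing to 8.97 to 19.9 CPM in the mutants, against 8.77 to 17.4 CPM in WT. The 4 seed storage genes summed to 0.0926 to 0.242 CPM in the mutants, against 0.184 to 0.286 CPM in WT, with 2 of them at 0 in all libraries. Permuting 4 libraries exactly, two-sided, gives no p below 0.333. Single genes were therefore tested only in edgeR's model across all 22744 genes that passed the filter, all 39 ribosomal protein genes among them.

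The sequences of the L3 genes are shown first because the largest difference among the 39 genes lay between these paralogs. L3 is a protein of the large subunit near the peptidyl transferase centre. *RPL3A* (AT1G43170, symbol *RP1* in RefSeq) and *RPL3B* (AT1G61580) have coding sequences that are 79.3% identical, within the range of 77.7% to 92.7% over all paralog pairs. The first 90 coding bases differ at 11 positions without a gap, with the differing bases in capitals (TAIR10.1 reference with Araport11 gene models):
RPL3A: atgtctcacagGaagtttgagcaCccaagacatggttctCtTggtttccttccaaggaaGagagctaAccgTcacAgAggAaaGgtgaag
RPL3B: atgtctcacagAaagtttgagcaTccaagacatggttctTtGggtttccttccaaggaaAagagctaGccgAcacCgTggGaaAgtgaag
None of the 150-base windows of either transcript occurs in the transcript of another gene, so that reads of this length could be told apart. The same held for 37 of the 39 genes. In the P0 gene AT2G40010, 27.6% of the windows are shared with the antisense RNA gene AT2G40008, and in the L6 gene AT1G18540, 33.6% with the antisense neighbor AT1G18530. The strand setting of the counting is not stated, so the values of these 2 genes are uncertain. The annotated ends of *RPS13A*, *RPL3B*, *RPS18C* and the P0 gene AT3G09200 overlap a neighbor by 2, 16, 25 and 100 bases.

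Promoter windows of 300 bases (250 before to 50 after the annotated start) are shown for *RPL3B* and the L27a gene AT1G70600, the genes called against WT in the tests below, and for *RPL3A*, the paralog of *RPL3B* that was not called. Capitals mark TGGGCC or TGGGCT (site II) on either strand, and GGCCCA and AGCCCA are the same motifs read on the other strand:
RPL3A (chr1:16266303-16266602, plus strand): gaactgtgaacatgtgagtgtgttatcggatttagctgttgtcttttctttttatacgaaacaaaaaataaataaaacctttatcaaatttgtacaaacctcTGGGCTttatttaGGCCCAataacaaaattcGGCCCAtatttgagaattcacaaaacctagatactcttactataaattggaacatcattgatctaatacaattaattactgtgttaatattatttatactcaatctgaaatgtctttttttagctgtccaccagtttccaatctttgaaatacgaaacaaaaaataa
RPL3B (chr1:22723103-22723402, minus strand): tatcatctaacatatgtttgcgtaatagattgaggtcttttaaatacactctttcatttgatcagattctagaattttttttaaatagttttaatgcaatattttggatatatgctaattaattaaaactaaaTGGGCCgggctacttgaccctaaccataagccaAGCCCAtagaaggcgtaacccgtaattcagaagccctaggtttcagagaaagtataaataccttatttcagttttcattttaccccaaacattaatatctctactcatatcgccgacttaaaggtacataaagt
L27a AT1G70600 (chr1:26621730-26622029, minus strand): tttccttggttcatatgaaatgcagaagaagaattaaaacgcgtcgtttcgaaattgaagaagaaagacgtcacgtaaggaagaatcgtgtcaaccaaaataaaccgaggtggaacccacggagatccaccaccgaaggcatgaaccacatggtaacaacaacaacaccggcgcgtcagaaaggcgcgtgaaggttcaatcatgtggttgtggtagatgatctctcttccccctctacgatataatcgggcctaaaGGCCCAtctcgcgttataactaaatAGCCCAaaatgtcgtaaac
All of these windows hold a site II motif and none holds the telo box AAACCCTAA. Over the 39 genes, 31 windows (79.5%) held TGGGCC or TGGGCT, against 21.7% of the windows of all protein-coding genes, and 10 (25.6%) held the telo box, against 3.60% of all. The other cytosolic ribosomal protein genes gave like shares, 76.3% and 28.2% of 177 windows. A match describes these letters and does not show that a factor binds there.

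The genes differed in level far more between themselves than between genotypes. Per kilobase of transcript, mean levels over the 8 libraries ranged 69.1-fold, with a median of 125.3 CPM per kilobase, and 23 genes lay above 100 CPM per kilobase. The highest was *emb2386* (AT1G02780), which encodes L19, a protein of the large subunit. It had 338 and 429.6 CPM in *fry1-6*, 407 and 351 CPM in the *rdr6-11* double and 407 and 345 CPM in the *rdr1-1* double, against 364 and 379 CPM in WT. The libraries of each mutant overlapped or enclosed the WT range. The lowest was the S11 gene AT4G30800, with 4.01 and 5.85 CPM in *fry1-6*, 5.95 and 2.71 CPM in the *rdr6-11* double and 5.14 and 4.73 CPM in the *rdr1-1* double, against 4.51 and 7.11 CPM in WT. Its groups overlapped as well. 4 genes lay under 10 CPM per kilobase: AT4G30800, the S9 gene AT5G39850, the P0 gene AT2G40010 and *RPL10B*. All but AT4G30800 have a paralog among the 39 genes with a much higher level.

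**Figure D1:**
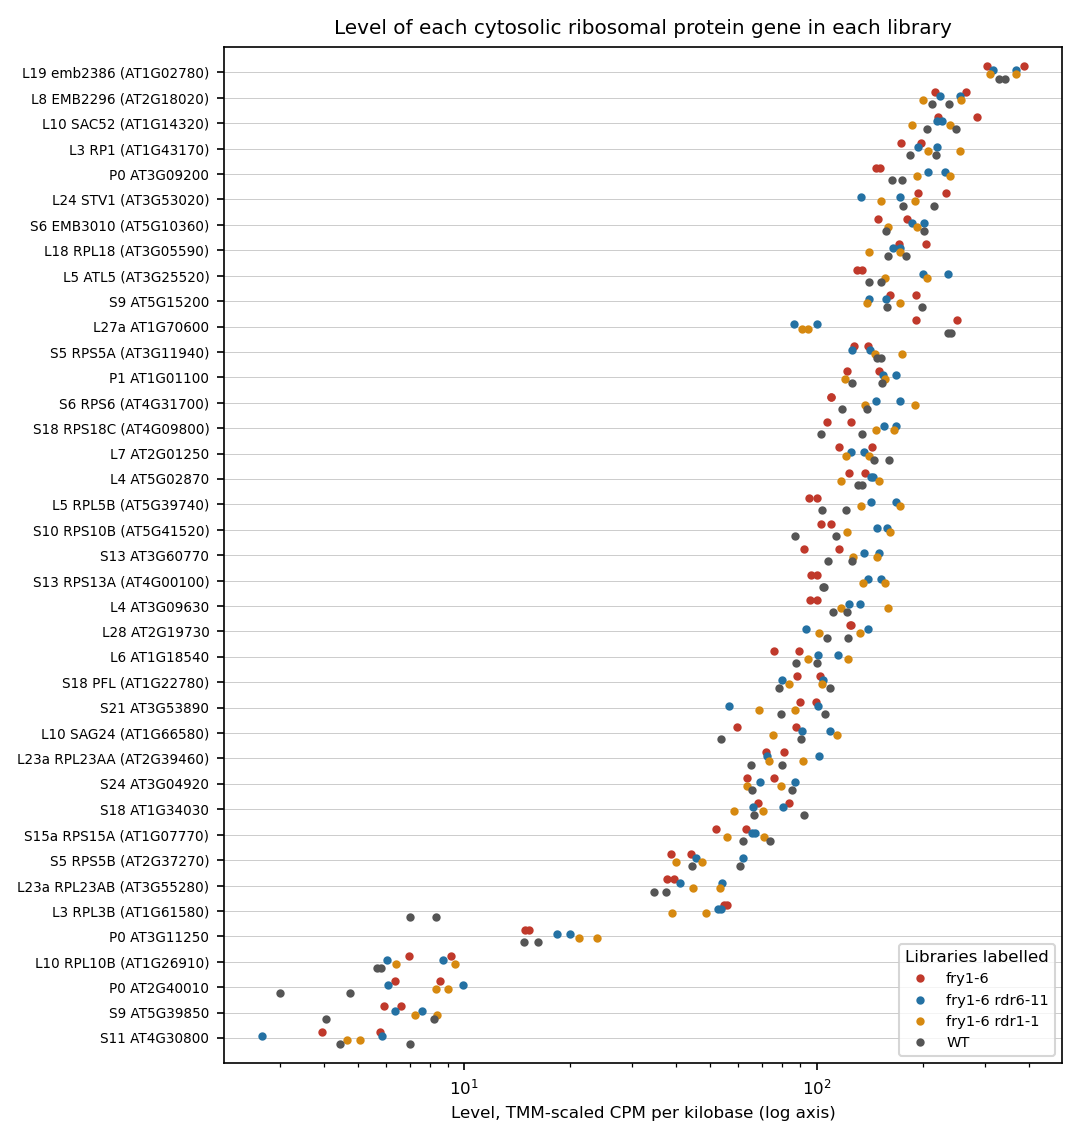
Level of each of the 39 genes in each library, as TMM-scaled CPM per kilobase on a log axis, with genes ordered by their mean and 2 points for each genotype in its own color. The points of a gene lie close together beside the 69.1-fold range between genes, apart from RPL3B, whose WT points stand far to the left of its mutant points, and AT1G70600, whose double mutant points stand to the left of the others.

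As a whole, the 39 genes were centered close to all other genes in every mutant. Their summed share of all gene counts was 0.488% and 0.561% in *fry1-6*, 0.704% and 0.667% in the *rdr6-11* double and 0.586% and 0.481% in the *rdr1-1* double, against 0.448% and 0.540% in WT. Their 95% Wilson intervals reached at most 0.00378 percentage points to either side (counting error only). The *rdr6-11* double libraries had the highest shares, which do not overlap those of WT. The other mutants overlapped WT. The share of the other cytosolic ribosomal protein genes was 1.67% and 1.50% in the *rdr6-11* double, against 1.1% and 1.45% in WT. A share of counts moves with the rest of the library. After TMM scaling, the median log2 fold change of the 39 genes against WT was -0.04 in *fry1-6*, 0.11 in the *rdr6-11* double and 0.09 in the *rdr1-1* double. Over all genes tested it was -0.03, 0.04 and 0.05. The median over the 39 genes varied between libraries of a genotype with an SD of 0.17 (log2), more than any of these medians. Without TMM, on total counts, the median in the *rdr6-11* double was 0.48 and that of all genes 0.41. There, 12 of the 39 genes were called higher and 1 lower, with 6781 of 22744 genes called in all. Scaling thus decides whether a general increase in the *rdr6-11* double is seen. The values below are relative to the bulk of genes.

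The genes moved together between libraries of the same genotype. Relative to each gene's mean over the 8 libraries, 6 and 22 of the 39 genes lay above it in the *fry1-6* libraries, 33 and 18 in those of the *rdr6-11* double and 36 and 13 in those of the *rdr1-1* double, against 4 and 27 in those of WT. The library medians on the log2 scale were -0.20 and 0.04 in *fry1-6*, 0.24 and -0.05 in the *rdr6-11* double and 0.22 and -0.11 in the *rdr1-1* double, against -0.16 and 0.04 in WT, while the medians over all genes stayed between -0.06 and 0.06. In each genotype, 1 library thus had many more of the 39 genes above their mean than the other. The order of the genes by level was kept, with a Spearman correlation of at least 0.869 between the means of a mutant and those of WT per kilobase (39 genes, a description).

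**Figure D2:**
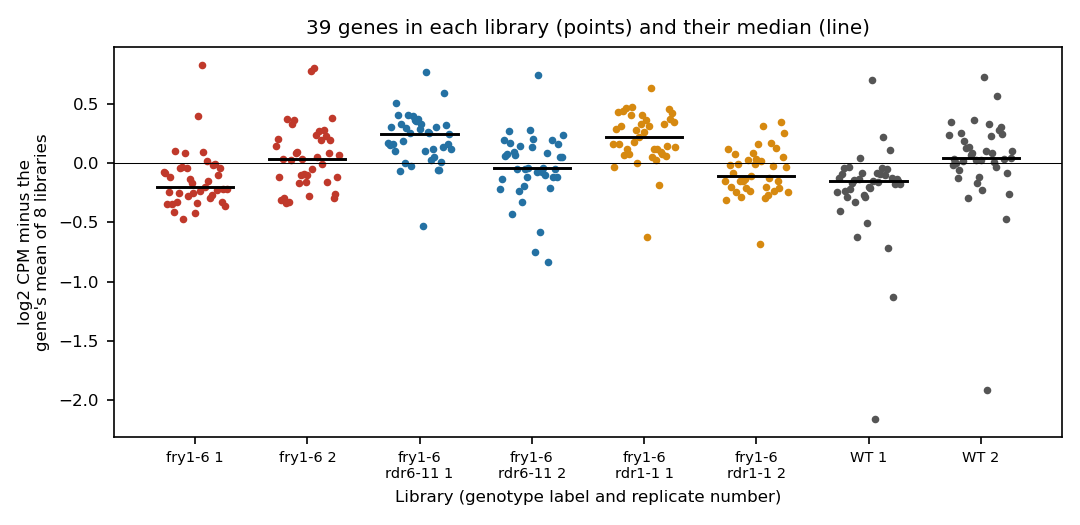
Deviation of each of the 39 genes (points) from its own mean over the 8 libraries, as log2 CPM, by library, with the median as a line. The medians of the 2 libraries of a genotype lie apart by more than the genotypes do, and the lowest points in both WT libraries are RPL3B.

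Few of the 39 genes were called in any comparison (edgeR's quasi-likelihood test, adjusted p under 0.05 over all genes). In *fry1-6* against WT, 1 gene was higher and none lower, where 5.03% of all tested genes were called higher and 0.387% lower. In the *rdr6-11* double against WT, 1 was higher and 1 lower, beside 10.9% and 7.94% of all genes. In the *rdr1-1* double against WT, 1 was higher and 1 lower, beside 5.9% and 2.07%. Against *fry1-6*, 1 gene was lower and none higher in the *rdr6-11* double (2.93% and 1.83% of all genes), and none was called in the *rdr1-1* double (0.0572% lower and 0.207% higher). No gene was called between the *rdr6-11* double and the *rdr1-1* double (1% of all genes lower and 0.101% higher). There DESeq2 called none of the 39 genes either, beside 1239 of 29407 genes. None of the 39 genes had an unadjusted edgeR p under 0.05, beside 3717 of 22744 genes. Against *fry1-6*, 7 of the 39 genes had an unadjusted edgeR p under 0.05 in the *rdr1-1* double, beside 3581 of 22744 genes. DESeq2 called 1 of these 7, AT1G70600, beside 641 of 29407 genes. These comparisons share libraries, the WT ones in 3 of them and the *fry1-6* ones in 3.

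**Figure D3:**
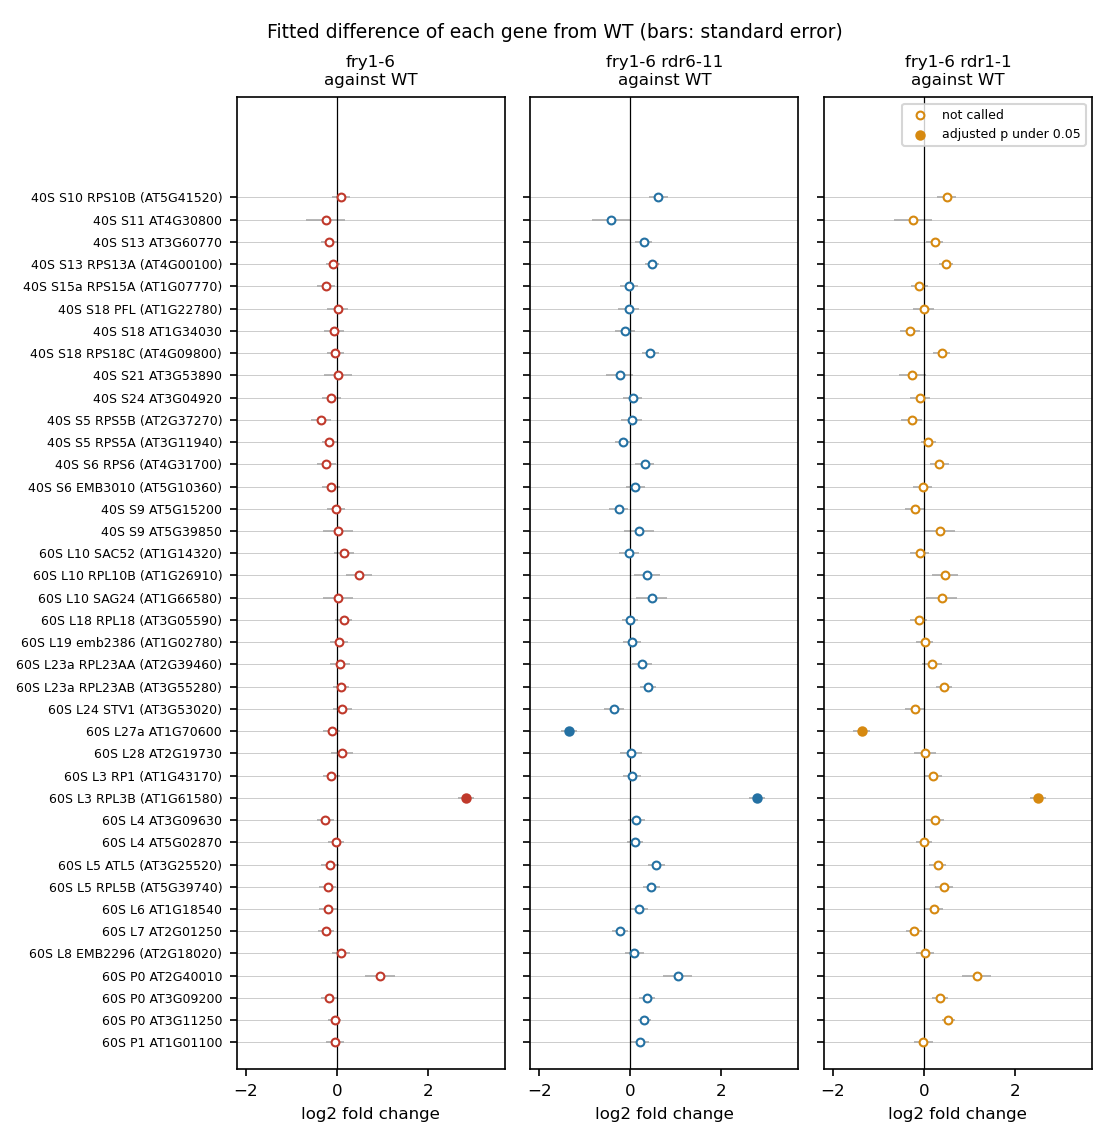
Fitted log2 fold change against WT of each of the 39 genes in *fry1-6*, the *rdr6-11* double and the *rdr1-1* double, with bars of 1 standard error and filled points for adjusted p under 0.05. RPL3B is the filled point at 2.84, 2.78 and 2.51, AT1G70600 the filled point at -1.35 and -1.36 in the double mutants, and the other points lie between -0.42 and 1.16.

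*RPL3B* was the gene called higher against WT in every mutant. The libraries of *RPL10B*, the L23a gene AT3G55280 and the P0 gene AT2G40010 also lay above both WT libraries in every mutant, but edgeR did not call these genes. *RPL3B* had 82.7 and 81.1 CPM in *fry1-6*, 79.3 and 77.9 CPM in the *rdr6-11* double and 72.2 and 57.7 CPM in the *rdr1-1* double, against 10.4 and 12.4 CPM in WT. The lowest mutant library was well above the highest WT library. The deposited counts behind these values were 1238 and 1248 in *fry1-6*, 1867 and 1694 in the *rdr6-11* double and 1560 and 1429 in the *rdr1-1* double, against 146 and 202 in WT. The log2 fold change against WT was 2.84 ± 0.18 (SE) in *fry1-6*, 2.78 ± 0.18 in the *rdr6-11* double and 2.51 ± 0.18 in the *rdr1-1* double (edgeR adjusted p = 0.00114, 0.000804 and 0.00127). Against *fry1-6* it was -0.06 ± 0.16 in the *rdr6-11* double and -0.33 ± 0.16 in the *rdr1-1* double, neither of which was called (adjusted p = 0.852 and 0.38). Chloroplast genes took 2.29% to 2.80% of the counts in the double mutants, against 0.0342% to 0.173% in *fry1-6* and WT, and the part of this share in the values of *RPL3B* was not tested.

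*RPL3A*, the paralog that supplies most L3 transcripts, was not called in any comparison. It had 303 and 343 CPM in *fry1-6*, 382 and 337 CPM in the *rdr6-11* double and 443 and 360.4 CPM in the *rdr1-1* double, against 319.97 and 381 CPM in WT. The libraries of every mutant overlapped those of WT. Its log2 fold change against WT was -0.12 ± 0.19 in *fry1-6*, 0.04 ± 0.19 in the *rdr6-11* double and 0.20 ± 0.19 in the *rdr1-1* double (edgeR adjusted p = 0.818, 0.913 and 0.568). The share of *RPL3B* in the summed L3 counts per kilobase, which does not depend on the scaling of libraries, was 24.2 and 21.7% in *fry1-6*, 19.6 and 21.3% in the *rdr6-11* double and 16.0 and 15.8% in the *rdr1-1* double, against 3.69 and 3.67% in WT. In WT *RPL3B* was thus a minor part of the L3 transcripts, and in the mutants its share lay between 15.8% and 24.2%. Shares were lower in both double mutants than in *fry1-6*, without overlap, which was not tested. In the *rdr6-11* double the margin was narrow (21.3% against 21.7% in the nearest *fry1-6* library).

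The genes on either side of *RPL3B* did not show this pattern. AT1G61590, which ends 215 bases before it on the same strand, had between 0.184 and 2.08 CPM in the 8 libraries. AT1G61570, 1024 bases beyond it, had 11.8 and 15.3 CPM in *fry1-6*, 10.2 and 7.86 CPM in the *rdr6-11* double and 8.66 and 6.99 CPM in the *rdr1-1* double, against 11.4 and 20.2 CPM in WT. Neither was called against WT in any mutant (edgeR adjusted p from 0.0989 to 0.993). A fit of only *fry1-6* and WT gave *RPL3B* a log2 fold change of 2.87 with adjusted p = 0.0582, and called no gene at all. A fit of only the *rdr1-1* double and WT gave 2.46 with adjusted p = 0.0509.

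The L27a gene AT1G70600, an intronless gene of a large-subunit protein, was lower in both double mutants. It had 183 and 239 CPM in *fry1-6*, 96.5 and 82.9 CPM in the *rdr6-11* double and 90.7 and 87.0 CPM in the *rdr1-1* double, against 226 and 231 CPM in WT. All 4 double mutant libraries lay between 82.9 and 96.5 CPM and all others between 183 and 239 CPM. The log2 fold change against WT was -1.35 ± 0.19 in the *rdr6-11* double and -1.36 ± 0.19 in the *rdr1-1* double (edgeR adjusted p = 0.00656 and 0.0106), and -0.11 ± 0.18 in *fry1-6*, which was not called (adjusted p = 0.813). Against *fry1-6* it was -1.24 ± 0.19 in the *rdr6-11* double (adjusted p = 0.0246) and -1.25 ± 0.19 in the *rdr1-1* double, where it missed the threshold (adjusted p = 0.0845) although the size was alike. Between the double mutants the difference was 0.01 ± 0.18 (adjusted p = 0.98). The libraries in which it was low are those with the high chloroplast share of counts. The part of that difference in the result was not tested.

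The call for AT1G70600 rested on few libraries. In the *rdr6-11* double against WT it was lost without replicate 2 of the *rdr6-11* double (log2 fold change -1.26, adjusted p = 0.0724). In the *rdr1-1* double against WT it was lost without either *rdr1-1* double library (-1.39 and -1.33, adjusted p = 0.0837 and 0.0602). Against *fry1-6*, the call in the *rdr6-11* double was lost without any single library of *fry1-6*, the *rdr6-11* double or the *rdr1-1* double (log2 fold change from -1.42 to -1.06, adjusted p from 0.0529 to 0.218), and it was kept without either WT library. Another L27a gene outside the list, *RPL27AB* (AT1G23290), had 73.4 and 106 CPM in *fry1-6*, 74.2 and 61.5 CPM in the *rdr6-11* double and 81.4 and 63.1 CPM in the *rdr1-1* double, against 94.7 and 129 CPM in WT. Its log2 fold changes against WT, -0.72 in the *rdr6-11* double and -0.63 in the *rdr1-1* double, were not called (adjusted p = 0.0973 and 0.18). The neighbor AT1G70610, which starts 119 bases away on the other strand, had 51.7 and 45.2 CPM in *fry1-6*, 16.3 and 17.4 CPM in the *rdr6-11* double and 47.2 and 35.2 CPM in the *rdr1-1* double, against 50.4 and 34.5 CPM in WT. It was lower in the *rdr6-11* double against WT (log2 fold change -1.33, adjusted p = 0.0129) but not called in the *rdr1-1* double (-0.04).

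**Figure D4:**
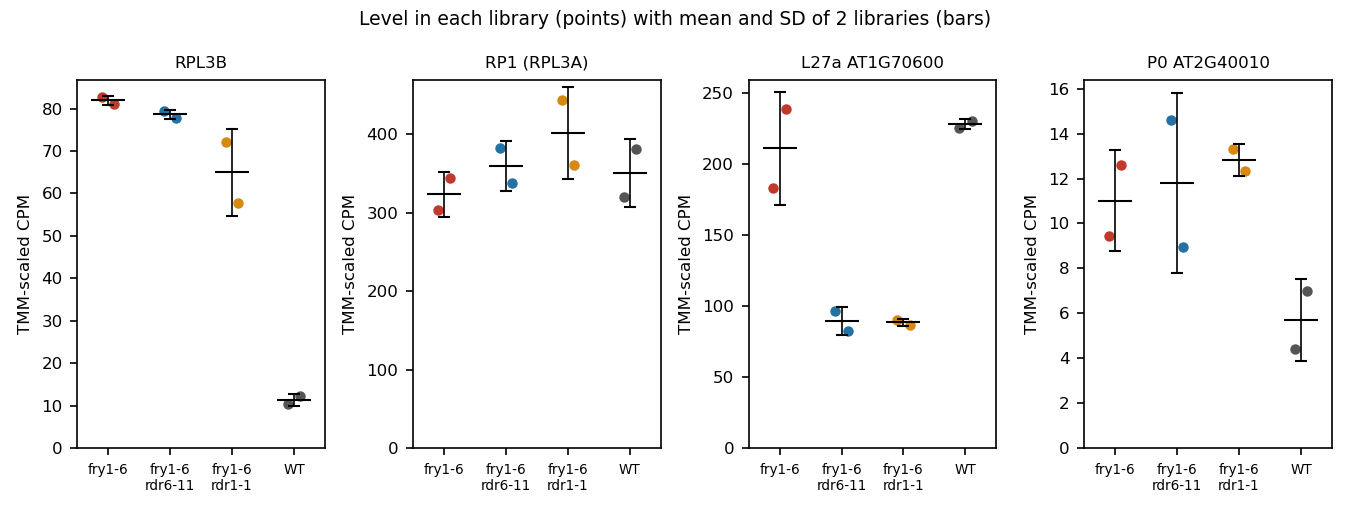
TMM-scaled CPM of RPL3B, RPL3A, the L27a gene AT1G70600 and the P0 gene AT2G40010 in each library (points), with the mean and SD of 2 libraries, from a zero baseline. RPL3B is lowest in WT (10.4 and 12.4 CPM), AT1G70600 is lowest in the double mutants (82.9 to 96.5 CPM), and RPL3A overlaps between all groups and WT.

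The proteins of the stalk, which binds elongation factors, are P0 and the acidic P proteins. The main P0 gene, AT3G09200, averaged 218 ± 3.55 CPM in *fry1-6*, 321 ± 24.7 CPM in the *rdr6-11* double and 315 ± 49.1 CPM in the *rdr1-1* double, against 247 ± 11.2 CPM in WT (SD, n = 2). Its second paralog AT3G11250 averaged 20.2 ± 0.401 CPM in *fry1-6*, 25.7 ± 1.48 CPM in the *rdr6-11* double and 30.2 ± 2.48 CPM in the *rdr1-1* double, against 20.8 ± 1.33 CPM in WT. Neither was called in any comparison by edgeR. The double mutants were the higher groups for both, with log2 fold changes against WT of 0.38 ± 0.18 and 0.30 ± 0.14 in the *rdr6-11* double and 0.35 ± 0.18 and 0.54 ± 0.14 in the *rdr1-1* double (edgeR adjusted p from 0.0694 to 0.256). The third P0 gene, AT2G40010, had the largest positive log2 fold changes against WT of the 39 genes after *RPL3B*, at 9.42 and 12.6 CPM in *fry1-6*, 14.6 and 8.96 CPM in the *rdr6-11* double and 13.3 and 12.3 CPM in the *rdr1-1* double, against 4.44 and 6.99 CPM in WT. Its log2 fold changes were 0.94 ± 0.33, 1.04 ± 0.33 and 1.16 ± 0.33 in *fry1-6*, the *rdr6-11* double and the *rdr1-1* double, none of which was called (adjusted p = 0.183, 0.0674 and 0.079), although DESeq2 called that in the *rdr1-1* double. The antisense gene AT2G40008 that overlaps it over 1185 bases gave 0.84, 1.11 and 1.15 in the same comparisons, at 7.03 CPM on average. AT2G40008 was called higher in the *rdr6-11* double (edgeR adjusted p = 0.0414) and not in the others (adjusted p = 0.183 and 0.0617). Without the strand, reads from the shared 27.6% of the windows of AT2G40010 cannot be told apart from those of AT2G40008. The P1 gene AT1G01100 averaged 116 ± 16.7 CPM in *fry1-6*, 138 ± 8.34 CPM in the *rdr6-11* double and 118 ± 21.9 CPM in the *rdr1-1* double, against 119 ± 16.1 CPM in WT. It was not called either.

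L5 binds the 5S rRNA and enters the large subunit with it. Its genes *RPL5A* (AT3G25520, symbol *ATL5*) and *RPL5B* (AT5G39740) were the closest to a call in the *rdr6-11* double against *fry1-6* among the genes that were higher, together with *RPS13A*. *RPL5A* had 195 and 201 CPM in *fry1-6*, 352 and 298 CPM in the *rdr6-11* double and 307 and 234 CPM in the *rdr1-1* double, against 211 and 227 CPM in WT. *RPL5B* had 133 and 140.4 CPM in *fry1-6*, 235 and 199 CPM in the *rdr6-11* double and 241 and 187 CPM in the *rdr1-1* double, against 145 and 169.97 CPM in WT. Both double mutants lay above *fry1-6* and WT without overlap for both genes. The log2 fold change of *RPL5A* was 0.72 ± 0.19 in the *rdr6-11* double against *fry1-6* and 0.57 ± 0.19 against WT (edgeR adjusted p = 0.0837 and 0.0829). That of *RPL5B* was 0.67 ± 0.19 and 0.46 ± 0.19 (adjusted p = 0.0968 and 0.14). None of these passed the test, whereas DESeq2 called both genes, and *RPS13A*, higher in the *rdr6-11* double against *fry1-6*.

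The genes of S13, a protein at the side of the small subunit that faces the large one, had values of the same kind. *RPS13A* (AT4G00100, also named *PFL2* for the pointed first leaves of its mutant) had 93.9 and 97.8 CPM in *fry1-6*, 149 and 136 CPM in the *rdr6-11* double and 152 and 132 CPM in the *rdr1-1* double, against 102 and 101 CPM in WT. Its double mutant libraries stood above all others, with a log2 fold change of 0.48 ± 0.15 in the *rdr6-11* double and 0.48 ± 0.15 in the *rdr1-1* double against WT (edgeR adjusted p = 0.0667 and 0.102). The other S13 gene, AT3G60770, averaged 95.0 ± 15.1 CPM in *fry1-6*, 131 ± 9.54 CPM in the *rdr6-11* double and 126 ± 13.9 CPM in the *rdr1-1* double, against 107 ± 11.8 CPM in WT. Its log2 fold changes against WT were 0.30 ± 0.19 and 0.24 ± 0.19 in the same double mutants.

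S6 is phosphorylated by the S6 kinases, which act downstream of TOR, a kinase that couples ribosome production to nutrients. *RPS6A* (AT4G31700) averaged 129.6 ± 0.0873 CPM in *fry1-6*, 189 ± 21.1 CPM in the *rdr6-11* double and 193 ± 44.1 CPM in the *rdr1-1* double, against 152 ± 17.7 CPM in WT. *RPS6B* (AT5G10360, symbol *EMB3010*) averaged 197 ± 26.9 CPM in *fry1-6*, 231 ± 12.9 CPM in the *rdr6-11* double and 210.1 ± 28.1 CPM in the *rdr1-1* double, against 214 ± 36.9 CPM in WT. Neither was called in any comparison. Among 8 genes of the TOR and S6 kinase branch, *S6K1* (AT3G08730) was higher in every mutant, at 87.8 and 64.0 CPM in *fry1-6*, 58.9 and 65.0 CPM in the *rdr6-11* double and 81.1 and 67.8 CPM in the *rdr1-1* double, against 33.2 and 25.5 CPM in WT. Its log2 fold changes against WT were 1.37, 1.08 and 1.34 in *fry1-6*, the *rdr6-11* double and the *rdr1-1* double (edgeR adjusted p = 0.0167, 0.0199 and 0.0187). *RAPTOR1* (AT3G08850), the partner of TOR, was lower in the *rdr6-11* double against WT, with a log2 fold change of -1.16 (adjusted p = 0.0164). The other 6 genes, *TOR* and *S6K2* among them, were not called in any comparison.

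The make-up of the other families moved less. Within S18, a protein of the head of the small subunit, *RPS18C* (AT4G09800) took a share of the family's counts per kilobase of 40.6 and 40.3% in *fry1-6*, 47.6 and 51.7% in the *rdr6-11* double and 48.8 and 51.0% in the *rdr1-1* double, against 41.6 and 40.1% in WT. The share of AT1G34030 was 26.0 and 26.8% in *fry1-6*, 22.8 and 21.9% in the *rdr6-11* double and 20.8 and 20.1% in the *rdr1-1* double, against 26.8 and 27.4% in WT. *PFL* (AT1G22780) held the rest, between 26.4% and 33.4%. *RPS18C* had a larger share in all 4 double mutant libraries than in the other 4. Its level averaged 93.1 ± 10.5 CPM in *fry1-6*, 129.5 ± 6.91 CPM in the *rdr6-11* double and 126 ± 10.3 CPM in the *rdr1-1* double, against 95.3 ± 18.1 CPM in WT. It was not called (edgeR adjusted p = 0.146 in the *rdr6-11* double and 0.234 in the *rdr1-1* double against WT).

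L10, which joins the large subunit late in its assembly, is encoded by *SAC52* (AT1G14320), *RPL10B* (AT1G26910) and *SAG24* (AT1G66580). *SAC52* was the main gene, with a share of 76.9 and 74.7% in *fry1-6*, 65.8 and 69.4% in the *rdr6-11* double and 66.0 and 69.6% in the *rdr1-1* double, against 77.6 and 72.1% in WT. *SAG24*, named as a senescence-associated gene, had 20.7 and 22.9% in *fry1-6*, 31.7 and 28.7% in the *rdr6-11* double and 31.4 and 28.1% in the *rdr1-1* double, against 20.2 and 26.2% in WT. *RPL10B* stayed between 1.68% and 2.59%. *SAC52* therefore held less of the family in both double mutants than in *fry1-6* and WT, where its libraries ranged from 72.1% to 77.6%. None of the 3 genes was called in any comparison. Their log2 fold changes against WT lay between -0.09 and 0.49.

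In the families with 2 genes, shares moved by at most 6.05 percentage points between the mean of a mutant and that of WT, apart from L3. For S6, the share of *RPS6A* was 42.4 and 37.8% in *fry1-6*, 46.2 and 44.2% in the *rdr6-11* double and 49.6 and 46.2% in the *rdr1-1* double, against 42.8 and 40.9% in WT. For L4, a protein that lines the exit tunnel, the share of AT3G09630 was 44.7 and 41.1% in *fry1-6*, 47.8 and 46.5% in the *rdr6-11* double and 51.5 and 50.1% in the *rdr1-1* double, against 45.9 and 47.5% in WT. The other L4 gene, AT5G02870, held the rest, and neither L4 gene was called in any comparison. Both genes supplied comparable amounts in each family, and the shares of *RPS6A* and AT3G09630 were highest in the *rdr1-1* double. For L5, the share of *RPL5A* was 57.8 and 57.4% in *fry1-6*, 58.4 and 58.4% in the *rdr6-11* double and 54.5 and 54.0% in the *rdr1-1* double, against 57.6 and 55.6% in WT. For L23a, a protein near the tunnel exit, that of *RPL23AA* (AT2G39460) was 65.6 and 67.2% in *fry1-6*, 65.3 and 64.0% in the *rdr6-11* double and 63.3 and 62.0% in the *rdr1-1* double, against 65.3 and 68.1% in WT. The paralogs *RPL5B* and *RPL23AB* (AT3G55280) held the rest, and each gained at most 4.05 points in a mutant.

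For S13, the share of *RPS13A* was 51.1 and 46.5% in *fry1-6*, 50.3 and 50.7% in the *rdr6-11* double and 51.4 and 51.7% in the *rdr1-1* double, against 49.4 and 45.3% in WT. For S5, a protein of the head of the small subunit, the share of *RPS5A* (AT3G11940) was 78.3 and 74.4% in *fry1-6*, 69.6 and 73.5% in the *rdr6-11* double and 78.7 and 78.5% in the *rdr1-1* double, against 76.9 and 71.6% in WT. Its paralog *RPS5B* (AT2G37270) was the minor gene throughout. The S9 gene AT5G15200 made up nearly all S9 transcripts, with 96.1 and 97.0% in *fry1-6*, 96.1 and 94.9% in the *rdr6-11* double and 95.4 and 95.0% in the *rdr1-1* double, against 97.5 and 96.0% in WT. For P0, AT3G09200 held 87.2 and 86.6% in *fry1-6*, 88.6 and 89.5% in the *rdr6-11* double and 87.9 and 86.7% in the *rdr1-1* double, against 89.5 and 89.9% in WT. AT2G40010 held 3.77 and 4.89% in *fry1-6*, 3.79 and 2.61% in the *rdr6-11* double and 3.31 and 3.76% in the *rdr1-1* double, against 1.64 and 2.44% in WT. AT3G11250 held the rest.

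Over all 11 families, at least 1 paralog had shares that did not overlap between the mutant and WT in 5 families for *fry1-6*, 8 for the *rdr6-11* double and 11 for the *rdr1-1* double. Against *fry1-6* it was 9 families for the *rdr6-11* double and 11 for the *rdr1-1* double, and between the double mutants 9. The same count over families outside the list was not made, and shares of single families were not tested. With 2 libraries in each group, a single share lies apart in 0.333 of all arrangements of the libraries. These counts are therefore not read as a result about the families. Levels of single genes are another quantity, and those of 42.4%, 61.6% and 52.5% of all tested genes did not overlap with WT in *fry1-6*, the *rdr6-11* double and the *rdr1-1* double. Among the 39 genes, 5 lay above and 9 below both WT libraries in *fry1-6* (23.3% and 19.1% of all genes), 18 above and 5 below in the *rdr6-11* double (34.5% and 27.1%), and 12 above and 2 below in the *rdr1-1* double (30.7% and 21.8%). By size rather than by separation, L3 stood apart. The largest shift between means was 19.3 percentage points for L3 in *fry1-6*, against 9.05 points or less for every other family in any mutant.

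**Figure D5:**
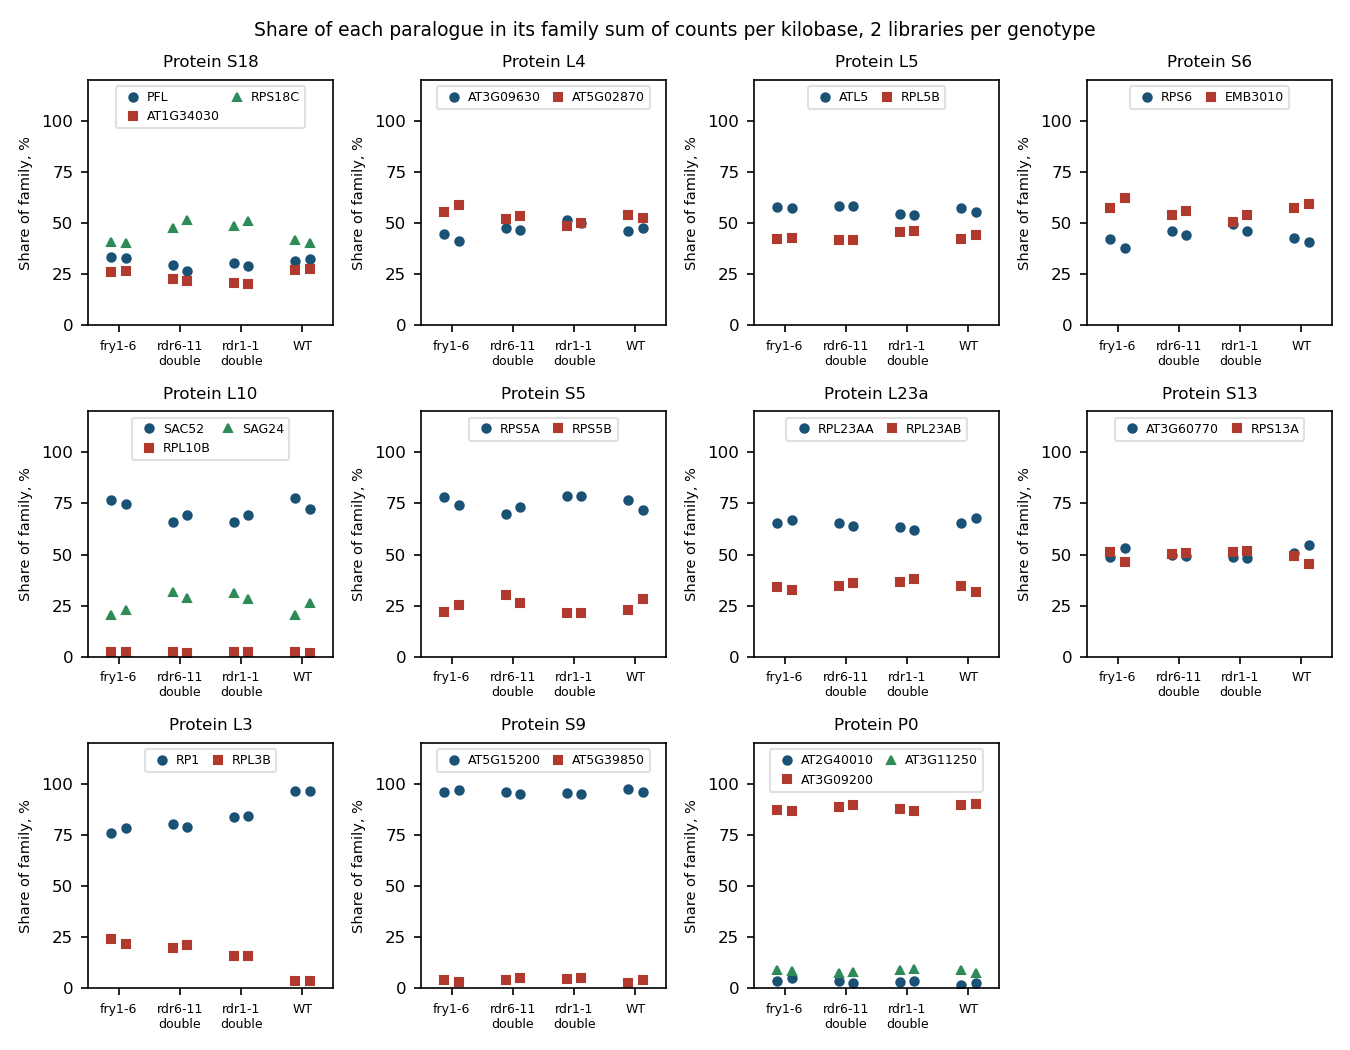
Share of each paralog in its family's counts per kilobase, in percent, for the 11 proteins with 2 or 3 genes in the list, with 2 points per genotype (both double mutants carry *fry1-6*). The L3 panel shows RPL3B between 15.8% and 24.2% in the mutants and at 3.69% and 3.67% in WT, while the other panels shift by 9.05 points or less between means.

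Of the proteins with a single gene in the list, only L27a was called. The log2 fold changes of the other 13 against WT lay between -0.42 and 0.62. The largest was that of *RPS10B* (AT5G41520), whose product S10 lies in the head of the small subunit. It had 104 and 111 CPM in *fry1-6*, 159.9 and 149.6 CPM in the *rdr6-11* double and 163 and 123 CPM in the *rdr1-1* double, against 87.3 and 114 CPM in WT. This was a log2 fold change of 0.62 ± 0.21 in the *rdr6-11* double against WT that was not called (edgeR adjusted p = 0.08). *STV1* (AT3G53020), whose product L24 is needed for reinitiation of translation after upstream reading frames, averaged 185 ± 24.1 CPM in *fry1-6*, 133 ± 23.6 CPM in the *rdr6-11* double and 148 ± 22.8 CPM in the *rdr1-1* double, against 169.9 ± 24.2 CPM in WT. Its libraries in the *rdr6-11* double lay below those of WT, and its log2 fold change of -0.36 ± 0.22 was not called (adjusted p = 0.286).

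The L8 gene *EMB2296* (AT2G18020), whose product lies at the peptidyl transferase centre, averaged 283 ± 40.3 CPM in *fry1-6*, 282 ± 25.6 CPM in the *rdr6-11* double and 269 ± 46.8 CPM in the *rdr1-1* double, against 264 ± 20.5 CPM in WT. *RPL18* (AT3G05590) averaged 239.6 ± 29.0 CPM in *fry1-6*, 215 ± 6.78 CPM in the *rdr6-11* double and 199.8 ± 28.9 CPM in the *rdr1-1* double, against 216 ± 18.5 CPM in WT. Neither was called, and the log2 fold changes of both against WT were within 0.15 of 0. The remaining genes, those of L6 (AT1G18540), L7 (AT2G01250), L28 (AT2G19730), S15a (*RPS15A*, AT1G07770), S21 (AT3G53890) and S24 (AT3G04920), had log2 fold changes between -0.25 and 0.22 against WT, and none was called. By subunit, the median log2 fold change against WT was -0.10 for 40S and 0.03 for 60S genes in *fry1-6*, 0.04 and 0.20 in the *rdr6-11* double, and -0.02 and 0.20 in the *rdr1-1* double.

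The other genes of cytosolic ribosomal proteins and of ribosome production were counted for comparison. Of 164 other cytosolic ribosomal protein genes that passed the filter, none was called in *fry1-6* against WT, 2 were higher and 6 lower in the *rdr6-11* double, and 5 were lower and none higher in the *rdr1-1* double. Those higher were AT2G47610, of the L7a type, and AT5G63070, of S15. Those lower in the *rdr1-1* double were AT2G25210 (L39), AT2G40205 (L41), AT3G10090, AT4G33865 (S29) and AT5G56670 (S30). All were named after their values were seen. The medians of all 164 log2 fold changes were -0.03, -0.03 and -0.12, beside -0.04, 0.11 and 0.09 for the 39 genes. Of 36 ribosome biogenesis factors, none was called in *fry1-6*, 1 was higher and 3 lower in the *rdr6-11* double, and 1 was lower in the *rdr1-1* double. The gene higher was AT4G02720, and *NUC-L1* (AT1G48920, nucleolin) and AT3G11964 were lower beside *NRPA2*. Lower in both double mutants was *NRPA2* (AT1G29940), a subunit of the RNA polymerase that makes the rRNA precursor, with log2 fold changes against WT of -1.62 and -0.83 (edgeR adjusted p = 0.00252 and 0.0284).

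The nuclear genes of plastid ribosomal proteins were centered lower. In *fry1-6* all 33 had a negative log2 fold change against WT, with a median of -0.30. None was called, and all tested genes had a median of -0.03. The genes of this list were measured in the same libraries and are not replicates, and the spread of their median between libraries was not computed. In the *rdr6-11* double 29 of 33 were negative with AT1G48350 and AT1G75350 called lower (median -0.24), and in the *rdr1-1* double 27 of 33 with AT1G48350 called lower (median -0.20). Of 14 elongation factors and 40S-bound factors none was called against WT, and their medians were -0.16, 0.09 and 0.12 in *fry1-6*, the *rdr6-11* double and the *rdr1-1* double. Of the 6 markers of green shoot, the light-harvesting genes AT2G05100 and AT1G29930 were lower in the *rdr6-11* double and AT1G29920 was higher in the *rdr1-1* double, genes with near-identical copies whose reads may be split between them. Of 6 markers of dividing cells, AT1G76540 was higher in the *rdr1-1* double. Of the markers of other tissues, the 4 measured root markers were not called against WT in any mutant. The part of these differences in the values of the 39 genes was not tested. In whole seedlings fewer cells of a kind and less RNA in each cell cannot be told apart.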

How the data were processed

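RNA of 8 seedling libraries was sequenced. According to the submitters' processing notes, reads were aligned with STAR 2.6 and counted on exons of genes with featureCounts 1.6.4. The methods of the study name Araport11 as the genome and let a read align to several positions with a single one reported. Whether featureCounts used the strand, and how it counted such reads, is not given in the sources used here, and the labels and the methods of the study name different library kits. The authors deposited whole, unnormalized read counts per gene for each library, with the exon length of each gene in bases. No column of another series was present (0), and all 39 genes had the length of TAIR10.1 gene models, from which sequences were taken (RefSeq).

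Genes were filtered with edgeR 4.0.16 (R 4.3.3, count minimum 10, total minimum 15), which left 22744 genes, and scaled by TMM. A single quasi-likelihood fit over all 8 libraries gave 6 genotype comparisons (4 residual degrees of freedom, Benjamini-Hochberg over all genes tested, called at adjusted p under 0.05). In simulated counts for *fry1-6* against WT on 22744 genes, 100 genes were changed 2-fold and 100 others 4-fold. Of these, 70% of 4-fold and 3% of 2-fold changes were recovered, with 9 false calls. Alternatives were DESeq2 1.42.0 and other scalings, filters, blocks and left-out libraries. A paralog's share was its counts per kilobase divided by the family's sum. No replicate of a genotype duplicated another. The list, its gene sets and tests were chosen with earlier results of these data known. All 39 genes were accounted for. Levels in every library were given for each gene called and for the highest and lowest gene per kilobase. For families whose shares did not overlap, paralog shares were given by library, and the levels of some of their genes only as means or not at all.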

Additional observations from a re-analysis of the deposited data

How the results depend on the processing

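The number of the 39 genes called depended on the fit. A fit of only the genotypes compared called 0 in *fry1-6* and 0 in the *rdr1-1* double against WT. Total counts without TMM called 13 in the *rdr6-11* double against WT and 6 against *fry1-6*, beside 6781 and 2007 of 22744 genes. The medians were then 0.48 and 0.41, with all genes at 0.41 and 0.27, and 0.35 between the double mutants, that of all genes. DESeq2 called 4 in the *rdr6-11* double and 1 in the *rdr1-1* double against *fry1-6*, beside 2697 and 641 of 29407 genes. Without 1 library at a time, 1 to 2 genes were called in each double mutant against WT and 0 to 1 in the *rdr6-11* double against *fry1-6*. The median between the double mutants then ranged from -0.11 to 0.19, and 6 to 10 families did not overlap between *fry1-6* and WT, since a lone library overlaps less. A lone library was assumed to vary like the other groups. On raw counts without length, the share of *RPL3B* was 20.3% in *fry1-6*, 18% in the *rdr6-11* double and 13.9% in the *rdr1-1* double, against 3.15% in WT. With the replicate number as a block, 1, 2 and 2 genes were called in *fry1-6*, the *rdr6-11* double and the *rdr1-1* double against WT, as without it. Of all 22744 genes, 997, 3605 and 1395 were then called. The block changed no call among the 39 genes. Over all genes it called 555, against 1082 without it, in the *rdr6-11* double against *fry1-6*. Deviations of libraries with the same number correlated at 0.61 between *fry1-6* and WT and at -0.19 and -0.16 between the double mutants and WT. The numbers were therefore not taken to pair libraries across all genotypes. They may pair those of *fry1-6* with those of WT, and a block for these genotypes alone was not fitted. A crossed replicate block, chosen after seeing the data, called 6 and 3 of the 39 genes in the *rdr6-11* and *rdr1-1* doubles against WT. It called 4 in the *rdr6-11* double against *fry1-6*. Over all 22744 genes, the same block called 5748, 2554 and 2444 in these comparisons. Over all genes, edgeR called 1232, 4291 and 1812 in *fry1-6*, the *rdr6-11* double and the *rdr1-1* double against WT, where DESeq2 called 1927, 5426 and 3012, and fits of only the genotypes compared called 0, 1828 and 79. Requiring 10 counts in every library gave 557 in *fry1-6* and 990 in the *rdr1-1* double against WT. The causes were not tested. The other 219 values that answer a comparison stayed within their limits, and of uncalled fold changes 339 of 4075 turned sign. With 2 libraries a genotype, uncalled genes are not shown to be unchanged. In the simulated data for *fry1-6* against WT, 2-fold changes were rarely recovered. Fewer genes were changed there than were called in the data, so this recovery need not hold for the data or for the double mutants.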

Other observations

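Among the other cytosolic ribosomal protein genes, the fold change in the double mutants went with transcript length. Of 20 genes with 500 to 700 bases of exons, 15 had a negative log2 fold change against WT in the *rdr6-11* double (median -0.63) and 19 in the *rdr1-1* double (median -0.74). In *fry1-6* it was 11 (median -0.02). Of 6 genes under 500 bases, 5 were negative in each double mutant, with medians of -0.97 and -1.15, and 3 in *fry1-6* (median 0.02). The 52 genes of 1000 bases or more had medians of 0.17 and 0.05 in the *rdr6-11* and *rdr1-1* doubles and -0.06 in *fry1-6*. Over the 164 genes, Spearman's correlation of length with log2 fold change was 0.39, 0.38 and -0.14 in the *rdr6-11* double, the *rdr1-1* double and *fry1-6*. These comparisons share the WT libraries. The 1475 tested genes under 500 bases of all kinds had medians of 0.18, 0.21 and 0.02 in the same comparisons, and the correlation over all 22744 genes was -0.08, -0.04 and -0.02. Genes are not replicates, and the length limits were set after seeing the data.

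The 39 genes hold few short transcripts, and only that of S21 (AT3G53890) has fewer than 700 bases. Its log2 fold change against WT was -0.24 in the *rdr6-11* double and -0.25 in the *rdr1-1* double, neither of which was called. The L27a gene AT1G70600, called lower in both double mutants, has 959 bases of exons. The 10 genes of 700 to 1000 bases, AT1G70600 among them, had medians of 0.12 and 0.01 in the *rdr6-11* and *rdr1-1* doubles, and the 28 longer genes of 0.12 and 0.19. The correlation over the 39 genes was 0.22 in the *rdr6-11* double, 0.20 in the *rdr1-1* double and -0.23 in *fry1-6*. The part of length in the other results was not tested.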
